A study of Laxus oneistus with 16 samples.

Results

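The transcriptome of the marine nematode *Laxus oneistus* was compared between incubations without oxygen and incubations with oxygen. All 16 libraries of the series entered, 7 from worms kept without oxygen and 9 from worms kept with it. Oxygen was absent in anoxic seawater (A, n = 4, replicates 1, 2, 3 and 5) and in anoxic seawater with sulfide (AS, n = 3, 11 µM sulfide according to the labels). Oxygen was present in hypoxic seawater (H, n = 3) and in fully aerated seawater (O, n = 6). The paper reports that its O profiles were too variable to group together. In its own edgeR fit it detected no differential expression of O from H, A or AS. In every condition, a library was made from the rRNA-depleted RNA of a batch of 50 whole wild-caught worms after 24 h, so each value is an average over pooled animals and all their tissues. The contrast was the average of the A and AS means minus the average of the H and O means, so that each condition counted equally whatever its number of libraries. In bulk RNA of this kind, fewer cells of a type and less RNA per cell cannot be told apart.

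*L. oneistus* lives in sand around the boundary between oxygenated and sulfidic pore water, coated by the sulfur-oxidizing bacterium *Candidatus* Thiosymbion oneisti. Animals that lose oxygen can no longer pass electrons to it through the respiratory chain. Many parasitic and free-living nematodes then ferment carbohydrate through phosphoenolpyruvate and malate to succinate and propionate, and use rhodoquinone to reduce fumarate. Responses to oxygen loss that are well known from *Caenorhabditis elegans* and other animals include higher glycolytic enzyme levels, chaperones, less protein synthesis and the removal of damaged mitochondria. Sulfide is a poison of cytochrome c oxidase, and animals oxidize it in mitochondria with the help of sulfurtransferases.

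Depth was 13865519 to 17673735 counts per library without oxygen and 9032239 to 18627712 counts with it. A replicates 3 and 5 and O replicates 2, 3 and 5 stood apart from the 11 other libraries. A set of 6212 transcripts had fewer than 10 reads summed over the 11 others, and 5680 of these had reads in the 5 libraries, where the set took 0.572% to 1.45% of the counts against 0.00236% to 0.00543% elsewhere. No AS or H library was among the 5, and what distinguishes them is not given in the sources used here. These transcripts were left out, and the main results are also given without the 5 libraries. Of the 27984 transcripts of the *de novo* assembly, 19093 had at least 10 reads in at least 3 libraries of a condition, and 18064 remained to be tested. Summed markers of muscle, of intestine and eggs, of dividing cells, of neurons and of cuticle overlapped between the 2 sides. The 18 muscle transcripts summed to 16770 to 28090 CPM without oxygen and 16690 to 25430 CPM with it. CPM are counts scaled to the library total, not corrected for length. In the test described next, 0 of the 32 marker transcripts passed, against 0.797% of all transcripts tested. At that share a set of this size would mostly hold 0 calls, so the count does not show that the cell types were equal.

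A small share of the transcriptome differed between the sides without and with oxygen. Sulfide was added only in AS, so the contrast averages anoxia with sulfide and anoxia without it. In edgeR's quasi-likelihood test, 144 of 18064 transcripts (0.797%) passed a false discovery rate (FDR, Benjamini-Hochberg) of 0.05 and a change of at least 1.5-fold, 79 higher without oxygen (0.437%) and 65 lower (0.36%). At an unadjusted p under 0.05 there were 2407 transcripts, and the lowest FDR was 6.95e-06. Single libraries moved the count by more than 1.5-fold, to 83 without AS replicate 1, 90 without AS replicate 3, 92 without H replicate 3 and 233 without O replicate 6. The 79 rises had a median log2 difference of 0.81, with a maximum of 3.21. The 65 falls were larger, with a median of -1.07 and an extreme of -5.13, and 10 of them but only 1 rise exceeded 4-fold. A further 51 rises and 31 falls of at least 1.5-fold had an FDR between 0.05 and 0.1. The called transcripts were of moderate level, with a median mean of 41.1 CPM against 17.2 CPM over all transcripts tested, and the highest mean among them was 914.5 CPM against 11620 CPM over all. Together, the rises took 0.608% to 0.99% of the counts in the libraries without oxygen and 0.404% to 0.505% in those with it. For the falls, these shares were 0.252% to 0.567% and 0.552% to 0.863%.

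A complete separation of the 7 libraries without oxygen from the 9 with it was rarer than a call and mostly upward. In CPM, 60 of all tested transcripts (0.332%) did not overlap between the sides, 46 of them higher without oxygen (0.255%) and 14 lower (0.0775%). Among the called transcripts, 30 of the 79 rises and 7 of the 65 falls were separated in this way. The falls were also the more variable within a side, with a median standard deviation of log2 CPM of 0.59 among the libraries without oxygen, against 0.36 for the rises and 0.39 over all transcripts tested. Among the libraries with oxygen, these values were 0.40 for the falls, 0.30 for the rises and 0.40 for all. Each side pools different conditions. Within a condition, the median was 0.375 for the falls, 0.293 for the rises and 0.379 for all. The test favours a low spread within conditions, and the calls lay at higher CPM than all transcripts tested. The spreads of calls and of all transcripts are therefore not like for like.

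The contrast is built from 4 differences, A - H, AS - H, A - O and AS - O, and the called transcripts moved the same way in most of them. In 74 of the 79 rises and 60 of the 65 falls, all 4 had the same sign, as in 6224 of all 18064 tested. The median rise was 0.83 for A - H, 1.08 for AS - H, 0.66 for A - O and 0.91 for AS - O on the log2 scale. The median fall was -0.80, -1.54, -0.49 and -1.26 in the same order. These differences share libraries and are set side by side as a description. The calls were chosen on the average of the 4, so their agreement in sign is partly fixed by that choice. The transcripts tested were not chosen in this way. AS lay further from the incubations with oxygen than A in 58 rises (73.4%) and 58 falls (89.2%), against 63.3% of all transcripts tested. Tested directly, AS minus A called 6 transcripts (0.0332%), all lower in AS with log2 differences of -1.94 to -1.2, and 3 of them were among the 65 falls. H minus O called 0 in edgeR's quasi-likelihood test (0%), with 1740 at an unadjusted p under 0.05. Against the average of H and O, A alone called 37 transcripts (0.205%) and AS alone 353 (1.95%). Of the 144 calls of the contrast, 32 (26 rises and 6 falls) were also called for A alone. For AS alone, 122 of the 144 (66 rises and 56 falls) were called. The same libraries had helped to choose the 144.

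**Figure D1:**
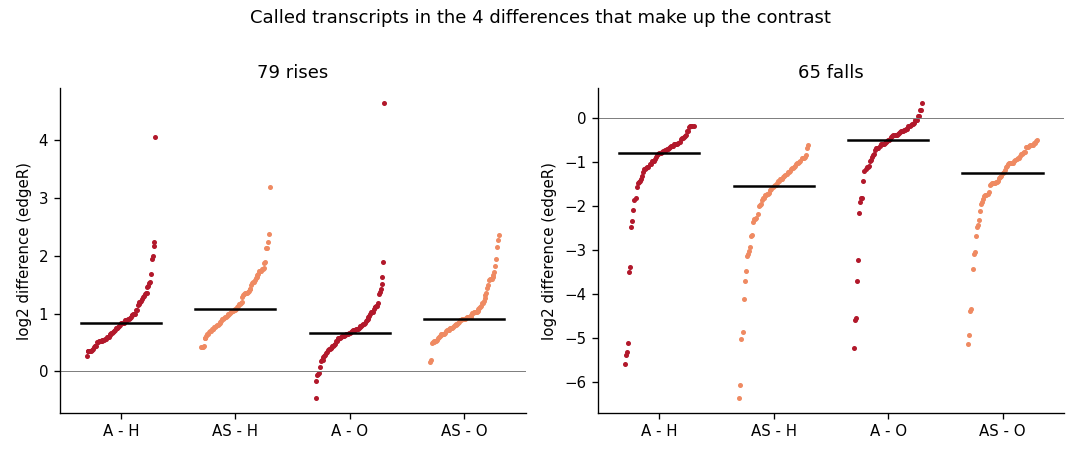
Log2 differences of the 79 called rises (left) and 65 called falls (right) in the differences A - H, AS - H, A - O and AS - O, each transcript a point in ascending order and each black line a median. The medians run from 0.66 to 1.08 for the rises and from -1.54 to -0.49 for the falls, and the median AS difference is larger in size than the median A difference from the same condition.

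The 2 largest rises and 2 largest falls among called, separated transcripts (10 or more reads in each library of the higher side) were not in the annotation entries used here, and they are given by their identifiers in the assembly. TRINITY_DN79873_c0_g1_i2_9dedup had 5.067, 5.397, 5.117 and 6.7 CPM in the A libraries and 1.05, 1.53 and 0.82 CPM in the AS libraries, against 0.153, 0.649 and 0.152 CPM in the H libraries and 0 to 0.469 CPM in the O libraries. Every library without oxygen was above every library with oxygen, and all 4 A libraries were above all 3 AS libraries. It rose 9.27-fold (log2 3.21, SE 0.56, FDR 0.0069). Counts were low, with 12 to 102 reads in a library without oxygen and 0 to 10 in a library with it, and the 0 reads of O replicates 3 and 6 allow up to 0.195 and 0.255 CPM. Without the 5 libraries that stand apart its log2 difference was 3.41 and its FDR 0.06.

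TRINITY_DN52369_c0_g1_i11_4dedup had the smallest p of all. Its level was 153.6, 161.9, 245.5 and 253.7 CPM in A and 283.9, 206.6 and 206.5 CPM in AS, against 57.6, 38.1 and 62.5 CPM in H and 49.5 to 76.7 CPM in O. Every library without oxygen was above every library with oxygen, and A and AS overlapped. This is a 3.70-fold rise (log2 1.89, SE 0.15, FDR 6.95e-06), and within the 11 other libraries the log2 difference was 1.71 with an FDR of 0.00266. A minus O was 1.92 within the 5 libraries that stand apart and 1.27 within the 5 other A and O libraries.

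Of the falls, TRINITY_DN54371_c3_g1_i3_4dedup had 3.34, 3.65, 6.33 and 0 CPM in A and 3.68, 1.82 and 0.82 CPM in AS. With oxygen it had 273.5, 45.8 and 104.8 CPM in H and 6.88 to 77.6 CPM in O, where replicate 1 was the lowest. The sides were separated, by a narrow gap between A replicate 3 and O replicate 1. Its level was 29.7-fold lower without oxygen (log2 -4.89, SE 0.64, FDR 0.00103), and the 0 reads of A replicate 5 allow up to 0.186 CPM. TRINITY_DN95874_c9_g2_i5_9dedup had 7.49 to 16.5 CPM in A and 9.29 to 14.9 CPM in AS, against 67.8 to 244.8 CPM in H and 40.2 to 283.6 CPM in O. It was 11.1-fold lower (log2 -3.47, SE 0.42, FDR 0.000603), the libraries without oxygen lay close together and those with oxygen spread over a wide range. Without the 5 libraries, the log2 differences of these falls were -4.82 (FDR 0.0156) and -2.97 (FDR 0.00548).

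**Figure D2:**
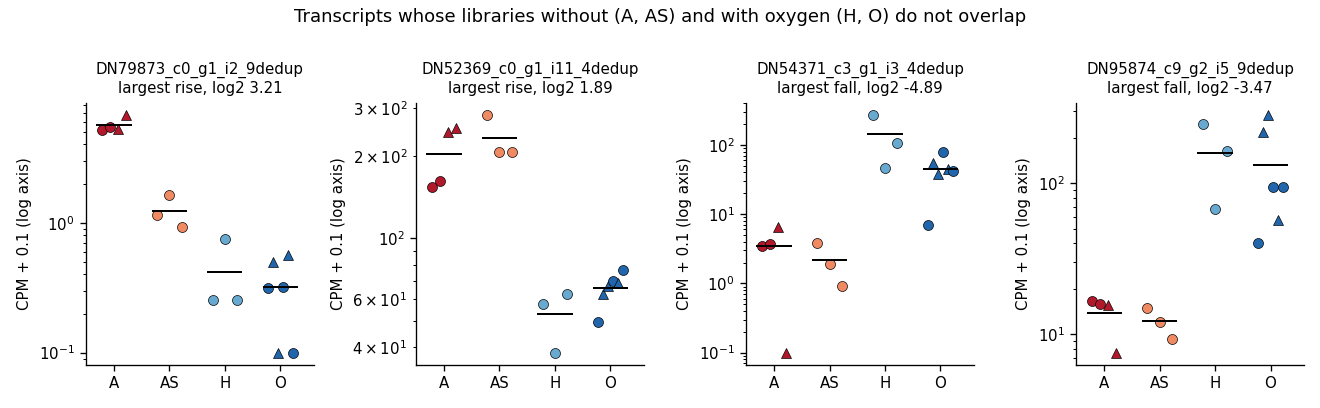
CPM plus 0.1 on a log axis in each library of A, AS, H and O for the 2 largest rises and the 2 largest falls among called transcripts whose sides do not overlap, with triangles for A replicates 3 and 5 and O replicates 2, 3 and 5 and lines for condition means. All A and AS points lie above all H and O points in the rises and below them in the falls.

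Without the 5 libraries that stand apart, edgeR's quasi-likelihood test called 17 transcripts (0.0941%), 9 rises and 8 falls, with 1229 at an unadjusted p under 0.05, and all 17 were among the 144. These 17 could be looked up in the 5 libraries, which had no part in that fit beyond the read filter. A minus O there, fitted on the 5 alone, had the same direction for 17 of 17, against 56.5% of all transcripts tested. In edgeR's quasi-likelihood test, 14 of the 17 had an unadjusted p under 0.05 in that direction, against 1134 of all 18064. The median size was 1.54 in the 11 libraries and 1.2 in the 5 on the log2 scale. A minus O was also taken within the 5 and within the 5 other A and O libraries. Of all 144, 125 (86.8%) had the direction of the contrast in both, against 37.1% of all transcripts tested. These libraries had also helped to choose the 144. The difference between these A minus O values, tested as an interaction, called 0 transcripts (0%) in edgeR's quasi-likelihood test, with 911 at an unadjusted p under 0.05 and a smallest FDR of 0.888. In total, 72 of the 144 (44 rises and 28 falls) were called without each of the 16 libraries in turn.

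Almost none of the called transcripts could be looked up, because only part of the study's annotation was used here. The entries used cover 308 of the 18064 transcripts tested (1.71%) and 1 of the 144 called. They give 151 tested transcripts a gene name from matches in other species and 71 more a predicted name. Of the 308, 172 came from the study's lists of its most abundant transcripts and proteins. The gene lists below therefore hold mainly abundant members and do not stand for whole pathways. Of the 151, 1 was called (0.797% over all transcripts), and of the 71, 0. At that share a list of a few genes would mostly hold 0 calls, so 0 passing in a list below says little about that list. The other 143 calls were outside these entries, which says nothing of whether they have an annotation, and the counts over named genes do not show which functions the calls belong to. Among the 151, 14 had an unadjusted p under 0.05 and were higher without oxygen and 16 were lower, beside 1344 higher and 1063 lower among all 18064. For 95 of the 151, the 95% interval of the difference lay within 1.5-fold in both directions, against 42.9% of all transcripts tested. Most of the 151 lay above the median of 17.2 CPM over all transcripts tested. Higher counts narrow an interval, so these shares are not like for like.

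The named transcript that passed was *ttr-35* (TRINITY_DN86074_c0_g1_i2_9dedup), of the transthyretin-related family, which in nematodes is large and mostly secreted. It had 246.7, 308.6, 344.1 and 423.7 CPM in A and 822.3, 469 and 617 CPM in AS, against 217.9, 226.2 and 287.9 CPM in H and 253.6 to 397.6 CPM in O (median of the 9 libraries with oxygen 350.7 CPM). All AS libraries were above all libraries with oxygen, whereas A overlapped with H and O. It rose 1.58-fold (log2 0.66, SE 0.14, FDR 0.0309). By condition, the log2 difference was 0.44 for A - H and 1.38 for AS - H, -0.06 for A - O and 0.88 for AS - O. AS minus A was 0.94 and did not pass (FDR 0.0923). The call was lost when any of 10 single libraries was left out (FDR up to 0.12) and in the 11 libraries alone (log2 0.58, FDR 0.387).

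Among named transcripts just short of the threshold were an intermediate filament, a lysozyme and a peroxidasin match. *ifb-1* (TRINITY_DN94423_c2_g1_i3_9dedup), a cytoplasmic intermediate filament that in *C. elegans* strengthens epidermis and other epithelia, averaged 1781 ± 346.5 CPM in A and 964.7 ± 218.7 CPM in AS, against 2336 ± 750.4 CPM in H and 1693 ± 289.3 CPM in O (SD, n = 4, 3, 3 and 6). The 3 AS libraries, at 999.6, 1164 and 730.6 CPM, all lay below every library with oxygen, the lowest of which had 1431 CPM, and A overlapped with O. The log2 difference was -0.60 (SE 0.15, FDR 0.0769). Its component differences were -0.39 for A - H, -1.28 for AS - H, 0.07 for A - O and -0.81 for AS - O.

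Lysozyme-like protein 5 (TRINITY_DN58251_c0_g1_i1_9dedup), of a family that cleaves bacterial cell walls, had 434.6, 383.6, 645.9 and 827.3 CPM in A and 1332, 1017 and 842 CPM in AS, against 675.9, 347 and 431.8 CPM in H and 213.5 to 631.4 CPM in O. The AS libraries were again above all libraries with oxygen, and the A libraries were spread over the range of H and O and above. The difference was 0.91 (SE 0.24, FDR 0.0842). The *C46A5.4*-like transcript (TRINITY_DN95018_c3_g1_i10_9dedup), which matches peroxidasin, a peroxidase of the extracellular matrix, was at 1173, 1269, 2227 and 740.8 CPM in A and 913.3, 1149 and 1328 CPM in AS. With oxygen it was at 2287, 1533 and 2231 CPM in H and at 1394 to 2866 CPM in O. Only A replicate 3 was above the lowest library with oxygen. Its log2 difference was -0.78 (SE 0.20, FDR 0.087), of a like size in A - H (-0.58), AS - H (-0.84), A - O (-0.71) and AS - O (-0.97), and -0.82 in the 11 libraries. Without A replicate 3 the difference was -0.95 and passed (FDR 0.0144).

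**Figure D3:**
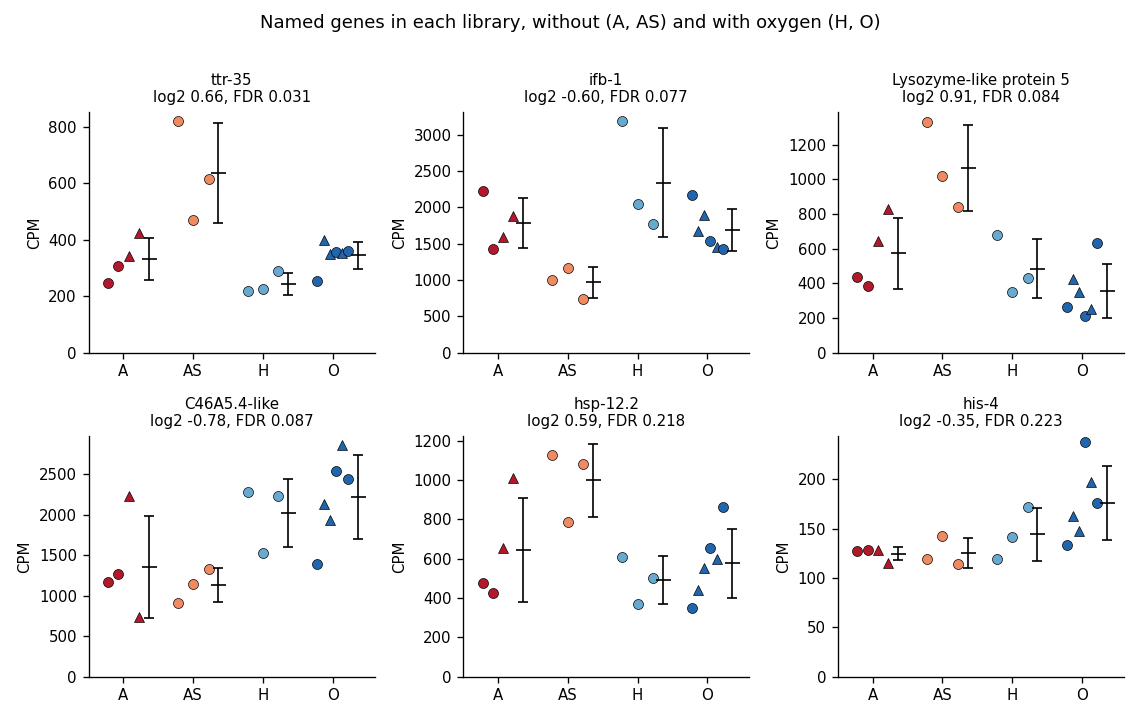
CPM in each library of A, AS, H and O for *ttr-35*, *ifb-1*, lysozyme-like protein 5, *C46A5.4*-like, *hsp-12.2* and *his-4*, with triangles for the 5 libraries that stand apart and bars for the mean and SD of each condition. The AS points lie above all points with oxygen in *ttr-35* and lysozyme-like protein 5 and below them in *ifb-1*.

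Among the genes looked up, none of the 4 globins, which bind oxygen, passed the test. All 4 were on the positive side, with log2 differences between 0.07 and 1.02 (median 0.38), and remained so under each of the scalings tried. The 1.02 belongs to an oxygen carrier match of very low level (TRINITY_DN10975_c0_g1_i1_9dedup, mean 1.22 CPM), with an interval of -0.36 to 2.4. In the 11 libraries all 4 were positive as well, with a median of 0.14. The *glb-1*-like transcript of smallest p (TRINITY_DN51537_c0_g1_i1_4dedup) averaged 395.7 ± 167.3 CPM in A, 587.9 ± 173.2 CPM in AS, 296.5 ± 48.4 CPM in H and 431.9 ± 126.2 CPM in O (mean and SD, n = 4, 3, 3 and 6), a log2 difference of 0.43 (SE 0.21, FDR 0.392). The more abundant *glb-1*-like transcript (TRINITY_DN84338_c0_g1_i3_9dedup) had a difference of 0.07 (95% interval -0.22 to 0.36). The globin median was 0.67 against H and -0.06 against O, so its sign depended on which oxygenated condition was taken.

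For the respiratory chain and ATP synthase, 0 of 5 passed, and the 95% interval was within 1.5-fold for 4. The *nduo-4*-like transcript (TRINITY_DN93105_c1_g2_i1_9dedup), for a complex I subunit encoded in mitochondria, had 6614 to 17800 CPM (median 11110) without oxygen and 6193 to 19560 CPM (median 11290) with it. The ranges nearly coincided, and the log2 difference was 0.00 with an interval of -0.53 to 0.54. *atp-1* (TRINITY_DN50498_c0_g1_i2_4dedup), the alpha subunit of the synthase, was at 0.24 (-0.02 to 0.49). Among 7 genes for nucleotide transfer and mitochondrial carriers, 0 passed, 6 had intervals within 1.5-fold, and the median was 0.09 (0.002 in the 11 libraries). The adenylate kinase match *ZK673.2*-like (TRINITY_DN91000_c0_g1_i1_9dedup) had the smallest p, with 56.3 to 101.1 CPM (median 80.6) without oxygen and 49.9 to 82.8 CPM (median 69.3) with it, a difference of 0.28 (SE 0.11, FDR 0.279). The sides overlapped widely. The more abundant adenylate kinase match *F38B2.4* (TRINITY_DN91892_c1_g1_i3_9dedup) was at 0.03 (-0.19 to 0.26).

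Glycolytic and gluconeogenic transcripts hardly differed. Of 8, 0 passed, 3 were positive and 5 negative, the median was -0.02 (-0.106 in the 11 libraries, with 1 of 8 positive) and the range -0.16 to 0.19, and for 7 the 95% interval excluded a 1.5-fold change in either direction. Fructose-bisphosphate aldolase, *aldo-1* (TRINITY_DN52711_c0_g1_i4_4dedup), had 1676 to 2289 CPM (median 1946) without oxygen and 1649 to 2158 CPM (median 1974) with it, a difference of 0.03 (-0.19 to 0.25). *pgk-1* (TRINITY_DN50087_c0_g1_i5_4dedup), phosphoglycerate kinase, averaged 310.3 ± 83.2 CPM in A, 339.4 ± 11.0 CPM in AS, 277.2 ± 24.8 CPM in H and 292.1 ± 40.2 CPM in O (SD, n = 4, 3, 3 and 6), a difference of 0.19 (-0.07 to 0.44). The exception was a low *gpd-3* copy (TRINITY_DN80994_c0_g1_i1_9dedup, mean 14.1 CPM), whose interval ran from -1.21 to 1.32. The phosphoenolpyruvate carboxykinases *pck-2-1* (TRINITY_DN54139_c0_g2_i2_4dedup) and *pck-2-2* (TRINITY_DN94483_c1_g2_i4_9dedup) had differences of -0.15 and -0.16.

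Around malate, the citric acid cycle and propionate, 0 of 10 passed and all 10 intervals lay within 1.5-fold. The 3 of unadjusted p under 0.05 were all negative. Malate dehydrogenase *mdh-1* (TRINITY_DN51770_c0_g1_i2_4dedup) had 657.9 to 1065 CPM (median 874.1) without oxygen and 865.6 to 1274 CPM (median 973.4) with it, a difference of -0.28 (SE 0.11, FDR 0.282). Citrate synthase *cts-1* (TRINITY_DN53947_c2_g2_i1_4dedup) was at 615.3 to 721.1 CPM (median 675.8) without oxygen and 673.1 to 882.2 CPM (median 783.8) with it, a difference of -0.21 (SE 0.09, FDR 0.305). Fumarase *fum-1* (TRINITY_DN94669_c0_g1_i4_9dedup) had a difference of -0.20 (SE 0.09, FDR 0.334). The other 7 were positive by at most 0.15 (6 of them under RLE or upper-quartile scaling). Among them was a less abundant *mdh-1* transcript (TRINITY_DN94238_c0_g1_i3_9dedup, mean 161.6 CPM) at 0.14 (-0.10 to 0.38).

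Chaperones were divided, with 3 positive and 6 negative of 9 and 0 passing. The 3 positive ones all had an unadjusted p under 0.05. *hsp-12.2* (TRINITY_DN84921_c0_g1_i2_9dedup), a small heat shock protein, had 478.1, 426.4, 654.4 and 1011 CPM in A and 1124, 786.4 and 1082 CPM in AS, against 609.7, 367.3 and 500.7 CPM in H and 350.1 to 860.9 CPM in O. A and O spread over a similar range and AS was high, and the difference was 0.59 (SE 0.21, FDR 0.218). The mitochondrial chaperonin *hsp-60* was represented by 2 transcripts, at 0.33 (TRINITY_DN89437_c0_g1_i3_9dedup, SE 0.12, FDR 0.245) and 0.29 (TRINITY_DN48693_c0_g1_i1_4dedup, SE 0.13, FDR 0.322). The cytoplasmic *hsp-90-2* (TRINITY_DN95139_c3_g1_i4_9dedup) averaged 5950 ± 892.1 CPM in A, 6269 ± 1470 CPM in AS, 7395 ± 1764 CPM in H and 5621 ± 1025 CPM in O (SD, n = 4, 3, 3 and 6), a difference of -0.08 (-0.38 to 0.22).

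Besides the peroxidasin match, the list of peroxide detoxification held 2 catalases and a peroxiredoxin, none of which passed. *ctl-2* (TRINITY_DN94512_c1_g1_i8_9dedup) had 2779 to 3599 CPM (median 3484) without oxygen and 2749 to 5587 CPM (median 3496) with it, a difference of -0.17 (-0.47 to 0.13). The 3 thiosulfate sulfurtransferase matches of the sulfide detoxification list were positive under every scaling, at 0.07 to 0.36, and 0 passed. The one of smallest p (TRINITY_DN89863_c1_g1_i4_9dedup) had 143.8, 163.6, 173.9 and 242.2 CPM in A and 248.9, 194.1 and 193.2 CPM in AS, against 154.9, 151.3 and 152.4 CPM in H and 131.1 to 214.8 CPM in O, a difference of 0.32 (SE 0.13, FDR 0.287). The list median of 0.32 was 0.15 in the 11 libraries, and it was 0.20 for A alone and 0.43 for AS alone against H and O.

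The ribosomal proteins formed the most one-sided large list, with 17 of 18 positive against 51.7% of all transcripts tested, under each of the scalings tried. The differences were small, from -0.03 to 0.42 with a median of 0.21, and 0 passed. In the 11 libraries without those that stand apart, the median was 0.04 and 10 of 18 were positive. *rpl-33* (TRINITY_DN44597_c0_g1_i2_4dedup), of the large subunit, had 283.2, 262.3, 285.6 and 491.2 CPM in A and 581.7, 371.9 and 487.7 CPM in AS, against 321.4, 269.8 and 237.2 CPM in H and 278.6 to 427.4 CPM in O. Apart from replicate 5, A lay within the range of H and O, and the difference was 0.38 (SE 0.15, FDR 0.293). *rpl-27* (TRINITY_DN44548_c0_g1_i4_4dedup) was at 0.42 (SE 0.17, FDR 0.305) and *rps-24* (TRINITY_DN84827_c0_g2_i1_9dedup), of the small subunit, at 0.36 (SE 0.20, FDR 0.461). For the list, the median was -0.003 for A alone and 0.401 for AS alone. The 3 translation factor transcripts were on the negative side under every scaling. *eef-1A.2* (TRINITY_DN10043_c0_g1_i1_4dedup, mean 196 CPM), which carries aminoacyl-tRNA to the ribosome, was at -0.32 (SE 0.14, FDR 0.344). The more abundant *eef-1A.2* transcript (TRINITY_DN53482_c0_g1_i2_4dedup, mean 2349 CPM) was at -0.16 (-0.39 to 0.07). *pab-1* (TRINITY_DN54797_c2_g1_i1_4dedup), which binds poly(A) tails, was at -0.19 (-0.45 to 0.07).

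Of the degradation genes, 0 of 4 passed. *sqst-1*-like (TRINITY_DN54584_c1_g1_i3_4dedup), the match of an autophagy receptor for ubiquitinated cargo, had 1802, 1330, 2308 and 1894 CPM in A and 1577, 1450 and 2430 CPM in AS, against 4059, 2362 and 2953 CPM in H and 1526 to 3029 CPM in O. H was the highest condition, and overlapped only with AS replicate 3 and O replicate 6. Its difference was -0.46 (SE 0.17, FDR 0.252), made up of -0.77 for A - H, -0.78 for AS - H, -0.14 for A - O and -0.16 for AS - O. Polyubiquitin *ubq-1-1* (TRINITY_DN50956_c2_g1_i9_4dedup) was at -0.05 (-0.26 to 0.17).

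Muscle genes did not differ detectably between the sides. For the thick filament, 0 of 18 passed and 14 were positive, with a median of 0.18. In the 11 libraries 10 of the 18 were positive and the median was 0.01. Paramyosin *unc-15-1* (TRINITY_DN54096_c0_g1_i3_4dedup) had 5755 to 7774 CPM (median 6021) without oxygen and 5542 to 9002 CPM (median 6523) with it, a difference of -0.10 (-0.34 to 0.15). The myosin heavy chain *unc-54* transcript of smallest p (TRINITY_DN95524_c1_g2_i3_9dedup) was at 0.31 (-0.07 to 0.69), and the several *unc-54* transcripts may share reads. For the thin filament and actin binding, 0 of 15 passed, 12 intervals lay within 1.5-fold and the median was 0.08. Troponin I, *tni-3* (TRINITY_DN53108_c0_g1_i5_4dedup), was at 0.15 (-0.15 to 0.46), and the troponin C match *pat-10-1* (TRINITY_DN52434_c0_g1_i4_4dedup) at 0.31 (-0.09 to 0.71). In the 11 libraries 3 of the 15 were positive, and in all libraries 9 of 15 (8 under the other scalings).

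Intermediate filaments and tubulin leaned the other way, with 7 of 8 negative, 4 of them at an unadjusted p under 0.05, and a median of -0.26. Beside the *ifb-1* transcript above, the tubulin *tbb-4* (TRINITY_DN54403_c1_g1_i1_4dedup) was at -0.32 (SE 0.14, FDR 0.323) and *ifa-1-1* (TRINITY_DN53608_c0_g1_i2_4dedup) at -0.25 (SE 0.12, FDR 0.371). A further *ifb-1* transcript (TRINITY_DN53316_c0_g1_i1_4dedup, mean 938.5 CPM) was at -0.01 (-0.30 to 0.27). A low *ifb-1* transcript (TRINITY_DN83970_c0_g1_i1_9dedup, mean 21.3 CPM) was at -0.32 (-1.25 to 0.61). *ifa-1-1* averaged 2491 ± 263.3 CPM in A, 1867 ± 261.9 CPM in AS, 2574 ± 486.2 CPM in H and 2544 ± 360.6 CPM in O (SD, n = 4, 3, 3 and 6), so A was close to H and O while AS was lower. For the list, the median was 0.00 for A alone and -0.44 for AS alone against H and O.

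Among extracellular matrix genes, 0 of 6 passed. *ig-h3-like-2* (TRINITY_DN54386_c1_g1_i1_4dedup), which matches a cell adhesion protein, had 3571, 2732, 2583 and 2071 CPM in A and 2241, 1882 and 2434 CPM in AS, against 5428, 4238 and 3664 CPM in H and 1870 to 4796 CPM in O. H was above all libraries without oxygen and O covered the whole range of A and AS. The difference was -0.51 (SE 0.19, FDR 0.25). The galectin *lec-3* (TRINITY_DN94156_c1_g1_i2_9dedup), a sugar-binding protein in the immune list, had 728.2 to 1085 CPM (median 899.6) without oxygen and 905.9 to 1338 CPM (median 1070) with it, a difference of -0.29 (SE 0.11, FDR 0.258).

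The 3 yolk protein transcripts were negative under every scaling, with a median of -0.40, but their spread was wide and 0 passed. *vit-6* (TRINITY_DN54667_c1_g1_i1_4dedup), a vitellogenin, had 9799, 12210, 5005 and 6866 CPM in A and 5170, 5834 and 3947 CPM in AS, against 16010, 11620 and 7192 CPM in H and 2653 to 12010 CPM in O, a difference of -0.40 with an interval of -1.004 to 0.214. *vit-4* (TRINITY_DN95726_c1_g1_i2_9dedup) was at -0.44 (-1.07 to 0.20). Of the histone transcripts, 4 of 5 were negative, 3 of them at an unadjusted p under 0.05, and 0 passed. *his-4* (TRINITY_DN81999_c1_g1_i2_9dedup) had 127.3, 128.1, 128.4 and 115.1 CPM in A and 118.8, 142.6 and 113.8 CPM in AS, against 119, 141.6 and 172 CPM in H and 133.6 to 237.6 CPM in O. The libraries without oxygen were close together at the low end, and the difference was -0.35 (SE 0.12, FDR 0.223). It was -0.21 for A - H and AS - H and -0.49 for A - O and AS - O.

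**Figure D4:**
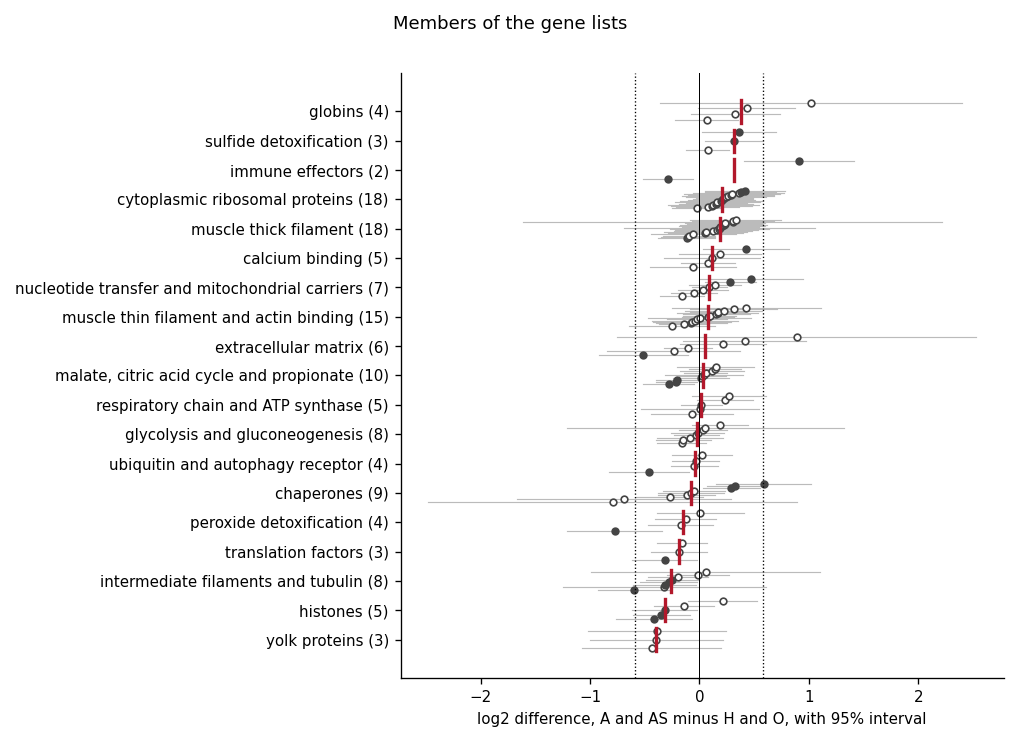
Log2 difference between A and AS and H and O for the members of 19 gene lists (number tested in brackets), with 95% intervals in grey, filled points for an unadjusted p under 0.05, red lines for medians and dotted lines at a 1.5-fold change. List medians run from -0.40 for the yolk proteins to 0.38 for the globins, and no member shown passed the FDR threshold.

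Of the 5 calcium-binding genes, 4 were positive (3 in the 11 libraries) and 0 passed. *cex-2*-like (TRINITY_DN50837_c0_g1_i1_4dedup), a calexcitin match, averaged 352.3 ± 181.9 CPM in A, 631.9 ± 144.5 CPM in AS, 306.9 ± 63.2 CPM in H and 401.5 ± 37.8 CPM in O (SD, n = 4, 3, 3 and 6), a difference of 0.43 (SE 0.19, FDR 0.33). Every AS library was above every library with oxygen, and A spread from below to above them. *acr-16*-like (TRINITY_DN104911_c0_g1_i1_9dedup) matches a nicotinic acetylcholine receptor subunit and had 12, 52, 29 and 7 reads in A and 52, 39 and 38 in AS, against 3, 13 and 12 reads in H and 8 to 44 in O. At these low counts the difference was 1.13 with an interval of 0.10 to 2.15 (FDR 0.328).

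The uncharacterized *C13A6.1* match (TRINITY_DN104631_c0_g1_i1_9dedup) did not follow oxygen. It had 0 reads in all A and AS libraries, 45, 176 and 122 reads in H and again 0 reads in all O libraries. Because both sides of the contrast hold libraries at 0, no fold is given. The 0 reads allow up to 0.0275 CPM over A and AS and up to 0.0378 CPM over O, against 8.05 ± 4.14 CPM in H (SD, n = 3). Among the remaining named transcripts, *acp-7*-like (TRINITY_DN90743_c0_g1_i2_9dedup), an acid phosphatase match, varied most, from 2.31 to 8297 CPM without oxygen and from 1178 to 13240 CPM with it, and its difference of -0.68 had an interval of -2.32 to 0.96. The *plasminogen*-like transcript (TRINITY_DN88745_c0_g1_i1_9dedup) was at 241.7 to 554.9 CPM (median 305.5) without oxygen and 145.7 to 494.6 CPM (median 211.7) with it, a difference of 0.75 (SE 0.20, FDR 0.0854).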

How the data were processed

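RNA-seq libraries of *L. oneistus* were prepared by the authors from batches of 50 worms after 24 h. According to the paper and the labels, reads were trimmed, symbiont reads were removed, a transcriptome was assembled *de novo*, and reads were mapped with bowtie2 and quantified with RSEM 1.3.1. The deposited values are the authors' estimated counts (RSEM expected counts) for each of 27984 transcripts, without normalization. Of these, 58.2% were whole numbers, and all were rounded to whole counts here. No genome, transcript length or sequence was used, so CPM are not comparable between genes and no sequence is shown.

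A transcript needed 10 or more reads in at least 3 libraries of a condition, and those with fewer than 10 reads over the 11 libraries other than A replicates 3 and 5 and O replicates 2, 3 and 5 were left out. In R 4.3.3, edgeR 4.0.16 fitted 1 mean per condition after TMM scaling. The quasi-likelihood F-test of the contrast was adjusted by Benjamini-Hochberg over all 18064 transcripts, with limits of 0.05 and 1.5-fold. SE and 95% intervals were derived from F. CPM were computed with edgeR's TMM-scaled library sizes, and the differences come from the fit. Alternatives used DESeq2 1.42.0 and limma 3.58.1. Library totals of 9032239 to 18627712 counts limit precision for low transcripts, and limits for counts of 0 (3 counts) cover counting error only. The worms came from several field trips, to which the labels tie no library, so p-values measure the spread between these batches of worms. No 2 libraries were identical, and chi-square divided by its degrees of freedom was at least 16.6 for each pair of a condition.

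Names were looked up in 1301 annotated entries that were to hand for the 27984 transcripts, of which 308 were tested. Named transcripts are the called ones with a name, the 2 largest rises and 2 largest falls among called transcripts whose sides did not overlap (10 or more reads in each library of the higher side), the transcript of smallest p and of highest mean CPM of each list, *C13A6.1* and *acr-16*-like. Those added to illustrate a list (*plasminogen*-like, *hsp-60*, *rpl-27*, *cts-1*, *fum-1*, *tbb-4*, *gpd-3*, *pck-2-1*, *pck-2-2* and the further transcripts of *ifb-1*, *mdh-1* and *eef-1A.2*) were chosen after their values were seen. The comparison, members and lists were chosen with earlier results of these data known, and the lists include genes the study selected on these samples.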

Additional observations from a re-analysis of the deposited data

Results flagged for a closer look

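In 11 of 80 groups of A or O libraries of a named transcript (13.8%), a single library stood far from the others of its condition. About 5% would be flagged by chance if groups were normal and independent, which transcripts measured in the same libraries are not. AS and H, with n = 3 each, were too small for this rule and were not examined. A replicate 5 was apart in 4 groups. It had 7.49 CPM of TRINITY_DN95874_c9_g2_i5_9dedup (15.5 to 16.5 CPM in the other A libraries), 434.1 CPM of *pgk-1* (258.3 to 283.1), 491.2 CPM of *rpl-33* (262.3 to 285.6) and 115.1 CPM of *his-4* (127.3 to 128.4). A replicate 3 had 3076 CPM of *ctl-2* against 3581 to 3599 in the others. O replicate 1 had 253.6 CPM of *ttr-35* (350.7 to 397.6 in the other O libraries), 5587 CPM of *ctl-2* (2749 to 3539) and 4960 CPM of *pab-1* (2682 to 3411). O replicate 6 had 3029 CPM of *sqst-1*-like (1526 to 2084), 474.6 CPM of *cex-2*-like (373.8 to 407.7) and 3.81 CPM of *acr-16*-like (0.882 to 1.199).

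The effects of AS and of A, each set against H and O, differed for 6 of 18064 transcripts (0.0332%) in edgeR's quasi-likelihood test of AS minus A, all lower in AS with an FDR of up to 0.0492.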

How the results depend on the processing

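The count of 144 called transcripts stayed within 1.5-fold under RLE (140), upper-quartile (143) and total-count scaling (149), the other read filters (126, 144 and 159), with the additional transcripts kept (127), with a batch term for the 5 libraries that stand apart (144), without a fold limit (170) and against H alone (129, with 40.3% of calls higher without oxygen, against 54.9% of the 144). It was higher with DESeq2 (296), edgeR's likelihood ratio test (268), limma-voom with library weights (376), for AS alone (353) and with a replicate block (277), and lower with glmTreat (9), in the 11 libraries (17), in the 5 libraries (1), with 1 mean for each side (74), for A alone (37) and against O alone (76). The cause was not tested. Without 1 library, 83 (AS replicate 1) to 233 (O replicate 6) were called, with 90 without AS replicate 3 and 92 without H replicate 3, and 80 to 141 of them were among the 144. The share of rises moved to 73% with 1 mean for each side, 81.1% for A alone and 65.8% against O alone, and to 65.6% without H replicate 1.

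The labels do not say that a replicate number marks a shared batch, so the libraries were not treated as pairs. Deviations of same-numbered libraries correlated at -0.228 to 0.469 over 19 pairs (median 0.0981, 9 above 0.1), those of other numbers at a median of -0.0145 over 74 pairs (13 above 0.1), and 8 of 14 libraries correlated best with a library of their own number. The block moved the count of calls to 277. DESeq2, the likelihood ratio test and limma-voom called *ifb-1*, lysozyme-like protein 5 and *C46A5.4*-like (FDR 0.00469 to 0.0426), and limma-voom also *hsp-12.2*. The replicate block called *ifb-1*, lysozyme-like protein 5 and *hsp-12.2* (FDR 0.0248 to 0.0401).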
